A study of Mus musculus with 24 samples.

Results

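The genes described here build the contractile apparatus and actin cytoskeleton of a myofibroblast, a fibroblast that carries smooth muscle proteins, and many are known targets of the transcription factor SRF. Of 45 listed genes, 43 had a probe set assigned to that gene alone among 19661 genes with such a probe set, and Actg1 and Cnn3 had none. Each gene was read from its brightest such probe set over all 24 arrays, and all 43 were among the 14830 genes kept after a filter on low values. They comprise 5 measured actins, 10 regulators of the thin filament, 5 myosin genes, 10 crosslinkers and adhesion proteins, 10 LIM domain, Z-disc and filament anchoring proteins, and 3 transcription regulators.

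The cells were mouse embryonic fibroblasts (MEFs) grown from 6 embryos at E13.5, 3 WT and 3 with the genotype Eif4e+/- (here Het), which carry a single intact allele of the gene for the cap-binding translation factor eIF4E. Each embryo gave an early passage primary untransformed culture and a culture transformed with Ras and Myc, all in medium with 10% serum and harvested in exponential growth. Total RNA and RNA from heavy polysomes, isolated after cycloheximide at 100 µg/ml on a 10 to 50% sucrose gradient, were hybridised to separate Affymetrix Mouse Gene 1.0 ST arrays, which gave 8 groups of 3 arrays. How Ras and Myc were delivered, and whether a transformed culture was a clone or a pool, are not given in the sources used here. The replicates were separate embryos, and WT and Het embryos were not paired.

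Values are log2 RMA intensities, so a difference of 1 is a doubling, and differences are read within a gene because each probe set has its own response. Percentiles, distances to the array maximum and summed levels only place probe sets on an array and give no order of RNA amounts between genes. The arrays of total RNA had means of 7.465 to 7.503 and those of polysomal RNA 3.78 to 3.79, so a difference between the fractions has no absolute scale. The SD over probe sets was lowest in 2 polysomal arrays, untransformed WT replicate 1 (1.15) and transformed WT replicate 3 (1.25), against a highest value of 1.44. Eif4e in total RNA lay at 9.03 to 9.21 in untransformed WT and 8.69 to 8.88 in untransformed Het cells, and at 9.40 to 9.80 and 8.84 to 9.21 in the transformed cells, so the genotypes did not overlap within either state. The fibroblast markers Vim and Fn1 were at or above the 99.7th percentile of every total RNA array. Of all 10 fibroblast markers, 9 lay above the median on every array of each untransformed group. In transformed cells 5 did so in WT and 7 in Het, and Lum and Dcn went down to percentiles 4.23 and 23.5. Of 11 skeletal muscle markers, 5 lay below the 40th percentile on every total RNA array of each group. Above the array median on every array of a group lay 4 of the 11, and 5 in transformed Het cells. Among them Ckm was at percentiles 63.3 to 70.9.

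SRF binds a short DNA element, the CArG box, together with myocardin or the myocardin-related factors. The myocardin-related factors are held in the cytoplasm by monomeric actin, so that polymerisation of actin releases them to the nucleus and raises the transcription of actin and actin-binding genes. In fibroblasts this program, with TGF-beta and mechanical tension, is known for the conversion to myofibroblasts, whose marker is alpha smooth muscle actin.

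The CArG box, a pair of C bases, a run of A or T and a pair of G bases, was searched as an exact match in RefSeq promoter windows of the GRCm38.p6 build that span 250 bases before to 50 bases after each transcription start. The element reads the same on both strands. It was found in the windows of 488 of 27025 genes (1.81%) and of 11 of the 38 listed genes that have a window (28.9%). Among measured genes with a window, the median change of total RNA with transformation was -1.27 for the 10 with a box and -0.87 for those without, which is a description of these genes. No window was given for Myh11, Tagln, Myocd, Actg2, Pxn, Csrp2 and Actb. A match is no evidence of binding, and a missing match says only that the exact letters are not in this window.

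Of the measured genes with a box, Fhl2 (-0.65), Actc1 (-0.56), Srf (-0.56) and Ldb3 (-0.34) changed least in total RNA with transformation. Shown are the sites of the 6 genes with the largest falls, with the box in capitals. They lie at chr2:156775293-156775322 for Myl9 (plus strand, box 161 bases before the start), chrX:56779571-56779600 for Fhl1 (plus, 102 bases), chr8:123894829-123894858 for Acta1 (minus, 73 bases), chr10:79988534-79988563 for Cnn2 (plus, 56 bases), chr14:45530250-45530279 for Fermt2 (minus, 204 bases) and chr14:20929161-20929190 for Vcl (plus, 227 bases).
Myl9: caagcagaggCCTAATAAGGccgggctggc
Fhl1: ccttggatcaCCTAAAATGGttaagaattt
Acta1: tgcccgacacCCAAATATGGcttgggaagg
Cnn2: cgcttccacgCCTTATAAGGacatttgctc
Fermt2: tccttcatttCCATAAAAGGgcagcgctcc
Vcl: cccactatgcCCTTATAAGGagcgccccgc

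The gene for SRF itself holds 2 boxes in its own window, chr17:46556113-46556412 on the minus strand, and is shown whole with the boxes in capitals. The window of Acta2, chr19:34255324-34255623 on the minus strand, is shown because Acta2 is the usual myofibroblast marker, and it holds 0 exact boxes.
Srf: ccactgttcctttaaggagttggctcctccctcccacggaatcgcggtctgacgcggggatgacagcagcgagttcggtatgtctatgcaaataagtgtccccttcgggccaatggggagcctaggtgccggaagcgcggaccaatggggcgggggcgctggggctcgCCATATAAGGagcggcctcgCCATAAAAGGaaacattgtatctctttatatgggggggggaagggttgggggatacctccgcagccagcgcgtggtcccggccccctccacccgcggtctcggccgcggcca
Acta2: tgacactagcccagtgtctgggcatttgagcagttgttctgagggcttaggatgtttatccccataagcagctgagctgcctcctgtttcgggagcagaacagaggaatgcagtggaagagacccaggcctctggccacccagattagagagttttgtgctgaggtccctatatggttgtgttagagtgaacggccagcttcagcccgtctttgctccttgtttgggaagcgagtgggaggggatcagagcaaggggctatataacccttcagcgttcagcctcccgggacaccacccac

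Nearly the whole program was lower in total RNA of the cultures transformed with Ras and Myc. With both genotypes averaged and embryo as a block, limma called 40 of the 43 genes at an adjusted p under 0.05, 39 lower and 1 higher, while 30.8% of all 14830 genes were called, 15.8% lower and 15.0% higher. The median difference was -0.88 over the 43 genes and 0.03 over all genes. The loss was at least 2-fold for 20 genes, 4-fold for 7 and 8-fold for 5. In 37 genes all 6 transformed cultures lay below all 6 untransformed cultures, as they did in 9.47% of all genes, and the members with overlapping states were Ankrd1, Csrp2, Flnc, Mylk and Myocd. The untransformed cultures were early passage primary cultures. Effects of Ras and Myc thus cannot be told apart from those of any difference in passage or time in culture. These were bulk samples, in which fewer cells of a type and less RNA per cell cannot be told apart.

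All 5 measured actins fell in total RNA, with a median of -2.04. Acta2, which encodes alpha smooth muscle actin (chr19:34240336-34255585, GRCm38.p6), read 13.29, 13.20 and 13.33 in the untransformed WT cultures and 13.28, 13.30 and 13.20 in the untransformed Het cultures. In the transformed cultures it read 9.22, 9.46 and 10.77 in WT and 11.51, 12.08 and 10.83 in Het. The states did not overlap, and the difference was -2.62 ± 0.22 (SE, 6 cultures per state, limma adjusted p = 0.000491). Untransformed values of Acta2 were within 0.020 to 0.149 of the maximum of their arrays, which left little room to show a higher level, so the loss is given as at least 6.16-fold and the spread of the states was not compared.

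Actg2, the enteric smooth muscle actin, read 11.75, 11.61 and 11.99 in untransformed WT and 11.53, 11.82 and 11.85 in untransformed Het cultures. It read 6.81, 7.18 and 8.47 in transformed WT and 8.79, 8.87 and 7.17 in transformed Het cultures. Every transformed culture was below every untransformed culture, by a 14.7-fold difference on average (-3.88 ± 0.29, limma adjusted p = 0.000333), although its lowest transformed value lay at the 38.1th percentile of its array, where a lower level may not show. Acta1, the skeletal muscle actin, moved from a range of 9.31 to 10.50 (median 9.95) to 7.80 to 8.12 (median 7.95), a difference of -2.04 ± 0.16. Actc1, the cardiac actin, fell by 0.56 ± 0.08, from percentiles 53.1 to 63.4 of its arrays to 40.8 to 46. It thus came to lie below the array median, near the filter on low values, where a lower level may not show. Actb, the cytoplasmic beta actin, fell from 13.23 to 13.33 down to 12.90 to 13.16 (-0.28 ± 0.06, limma adjusted p = 0.0116), but its values were within 0.019 to 0.085 of the array maximum in untransformed and 0.214 to 0.395 in transformed cells, so the size of its loss has little room to show.

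**Figure D1:**
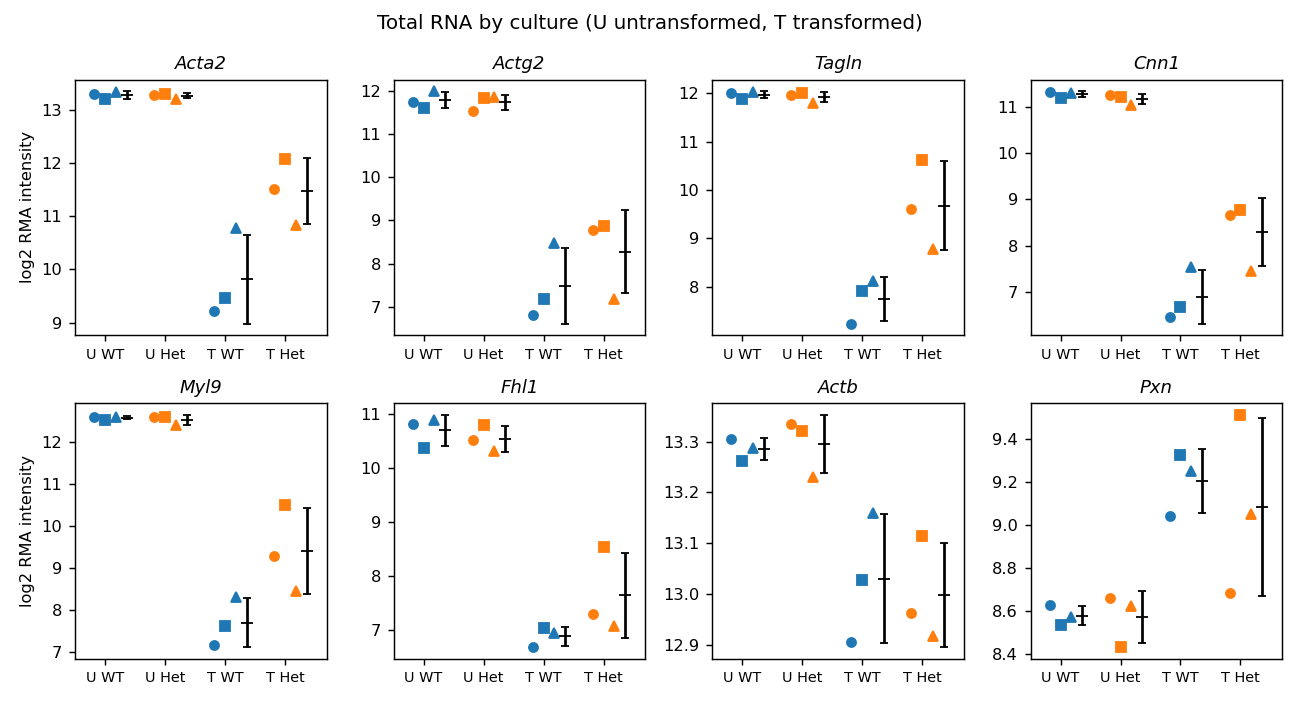
Log2 RMA intensity in total RNA (vertical axis) of 8 genes in each culture, by state (U untransformed, T transformed) and genotype (WT blue, Het orange); circles, squares and triangles are embryos 1, 2 and 3 of a genotype, and bars give mean ± SD of 3 cultures. Acta2 sits at 13.20 to 13.33 in untransformed cells and at 9.22 to 12.08 in transformed cells, and Pxn runs the other way, from 8.43 to 8.66 up to 8.68 to 9.51.

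The 10 measured regulators of the thin filament all fell in total RNA, with a median of -1.21. Cnn1, a smooth muscle calponin that restrains actomyosin, read 11.31, 11.19 and 11.30 in untransformed WT and 11.26, 11.20 and 11.04 in untransformed Het cultures. It read 6.47, 6.68 and 7.55 in transformed WT and 8.65, 8.77 and 7.45 in transformed Het cultures. The states were separated by more than 2 log2 units and differed by -3.62 ± 0.19 (limma adjusted p = 0.00012), a measured 12.3-fold loss. The lowest transformed value lay at the 29.9th percentile of its array, below the 40th percentile used as the filter on low values, so the loss of Cnn1 may be understated. Tagln, the actin-binding protein transgelin of smooth muscle, read 12.002, 11.89 and 12.01 in untransformed WT and 11.97, 12.001 and 11.79 in untransformed Het cultures. It read 7.24, 7.91 and 8.12 in transformed WT and 9.61, 10.62 and 8.79 in transformed Het cultures, so that the states again did not overlap. Its difference was -3.23 ± 0.21 (limma adjusted p = 0.000254), a measured 9.37-fold loss. The lowest transformed value of Tagln lay at the 49.4th percentile of its array, so its loss too may be understated.

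The broadly expressed calponin Cnn2 fell by 1.94 ± 0.27. Lmod1, a leiomodin that nucleates actin filaments in smooth muscle, fell by 1.79 ± 0.10, to percentiles 42.6 to 56.2, where a lower level may not show. Among the tropomyosins, which wrap the actin filament, Tpm2 fell by 1.50 ± 0.12, Tpm1 by 0.55 ± 0.07 and Tpm4 by 0.44 ± 0.07. Of the 3 tropomyosin genes, Tpm2 thus had the largest difference in total RNA, a 2.82-fold loss. Tagln2 fell by 0.93 ± 0.11, the caldesmon gene Cald1 by 0.88 ± 0.08 and the smoothelin gene Smtn by 0.42 ± 0.08.

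Of the 5 myosin genes 4 fell. Myl9, the regulatory light chain whose phosphorylation switches on smooth muscle and nonmuscle myosin, had the largest measured difference of the 43 genes. It read 12.60, 12.54 and 12.61 in untransformed WT and 12.60, 12.60 and 12.40 in untransformed Het cultures. It read 7.16, 7.63 and 8.33 in transformed WT and 9.30, 10.49 and 8.45 in transformed Het cultures. The states did not overlap, and the difference was -3.996 ± 0.25 (limma adjusted p = 0.000219), a measured 16.0-fold loss. Its lowest transformed value lay at the 47.4th percentile of its array, so this loss may be understated. Myh11, the smooth muscle heavy chain, went from 8.56 to 9.38 (median 8.74) to 7.07 to 7.38 (median 7.31), a difference of -1.59 ± 0.11. Its transformed values lay at percentiles 45.8 to 52.7, where a lower level may not show. The nonmuscle heavy chains Myh9 and Myh10 each fell by 0.71, with SE of 0.10 and 0.06. Mylk, the kinase of the light chain, differed by -0.10 ± 0.08 and did not pass the test.

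Among crosslinkers and adhesion proteins 8 of 10 fell, with a group median of -0.94, and 1 rose. Fermt2, a kindlin that activates integrins, fell by 1.39 ± 0.10. The actin crosslinkers Actn1, Flna and Actn4 fell by 1.29 ± 0.12, 1.13 ± 0.12 and 0.74 ± 0.09. Vcl, the vinculin that links actin to adhesions, went from 11.50 to 11.77 (median 11.62) to 9.97 to 11.05 (median 10.49), a difference of -1.14 ± 0.11. Lpp, its relative zyxin (Zyx) and the talin gene Tln1 fell by 1.02 ± 0.10, 0.85 ± 0.13 and 0.59 ± 0.08. Flnc, the muscle filamin, differed by -0.53 ± 0.17 and missed the threshold (limma adjusted p = 0.0571), but was called without WT replicate 3 (-0.74, adjusted p = 0.00213).

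Pxn, which encodes the focal adhesion scaffold paxillin, was the only gene of the 43 that rose. It read 8.63, 8.54 and 8.57 in untransformed WT and 8.66, 8.43 and 8.62 in untransformed Het cultures. It read 9.04, 9.33 and 9.25 in transformed WT and 8.68, 9.51 and 9.05 in transformed Het cultures. All transformed cultures lay above all untransformed ones, with Het replicate 1 only just above, and the difference was 0.57 ± 0.13 (limma adjusted p = 0.0184). The call was lost without WT replicate 2 (adjusted p = 0.0582) and without Het replicate 3 (0.0562).

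Of the 10 LIM domain, Z-disc and anchoring genes 9 fell, with a median of -0.74. Fhl1, a LIM-only protein of muscle, read 10.82, 10.36 and 10.89 in untransformed WT and 10.51, 10.79 and 10.31 in untransformed Het cultures. It read 6.68, 7.03 and 6.94 in transformed WT and 7.30, 8.54 and 7.07 in transformed Het cultures. The states did not overlap and differed by -3.35 ± 0.16 (limma adjusted p = 8.69e-05), a measured 10.2-fold loss. Its lowest transformed value was at the 34.9th percentile of its array, so this loss too may be understated. Csrp1, Pdlim5 and Palld, which bind alpha-actinin, fell by 1.73 ± 0.19, 1.36 ± 0.15 and 1.30 ± 0.13. Des (the muscle intermediate filament desmin), Synpo2, Pdlim7, Fhl2 and Ldb3 had smaller losses between 0.75 and 0.34. Transformed values of Synpo2 lay at percentiles 31.9 to 41.3 and those of Des at 36.3 to 52.9, so these losses may be understated. Csrp2, a LIM protein of smooth muscle, differed by -0.48 ± 0.30 with overlapping states and was not called (limma adjusted p = 0.273), but was called without WT replicate 2 (-0.82, adjusted p = 0.0325).

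The 3 transcription regulators fell. Srf read 9.01, 8.70 and 8.87 in untransformed WT, 8.87, 8.97 and 8.80 in untransformed Het, 8.35, 8.15 and 8.25 in transformed WT and 8.48, 8.45 and 8.19 in transformed Het cultures. Its states did not overlap, and its difference of -0.56 ± 0.05 (limma adjusted p = 0.000695) was a 1.47-fold loss. Ankrd1, an ankyrin repeat protein of muscle nuclei and sarcomeres, varied most among transformed cultures, at 10.83, 8.79 and 11.74 in WT and 10.53, 9.61 and 7.69 in Het, against 11.42 to 12.09 in untransformed cultures. Transformed WT replicate 3 thus reached the untransformed range, and the difference was -1.97 ± 0.40 (limma adjusted p = 0.0104). Myocd, the myocardin gene, was at 6.44 to 6.93 before and 6.26 to 6.71 after transformation, between percentiles 26.1 and 41.4 of its arrays. Its difference of -0.34 ± 0.08 therefore lies at the low end of the array, and the call was lost without Het replicate 3 (limma adjusted p = 0.0617).

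**Figure D2:**
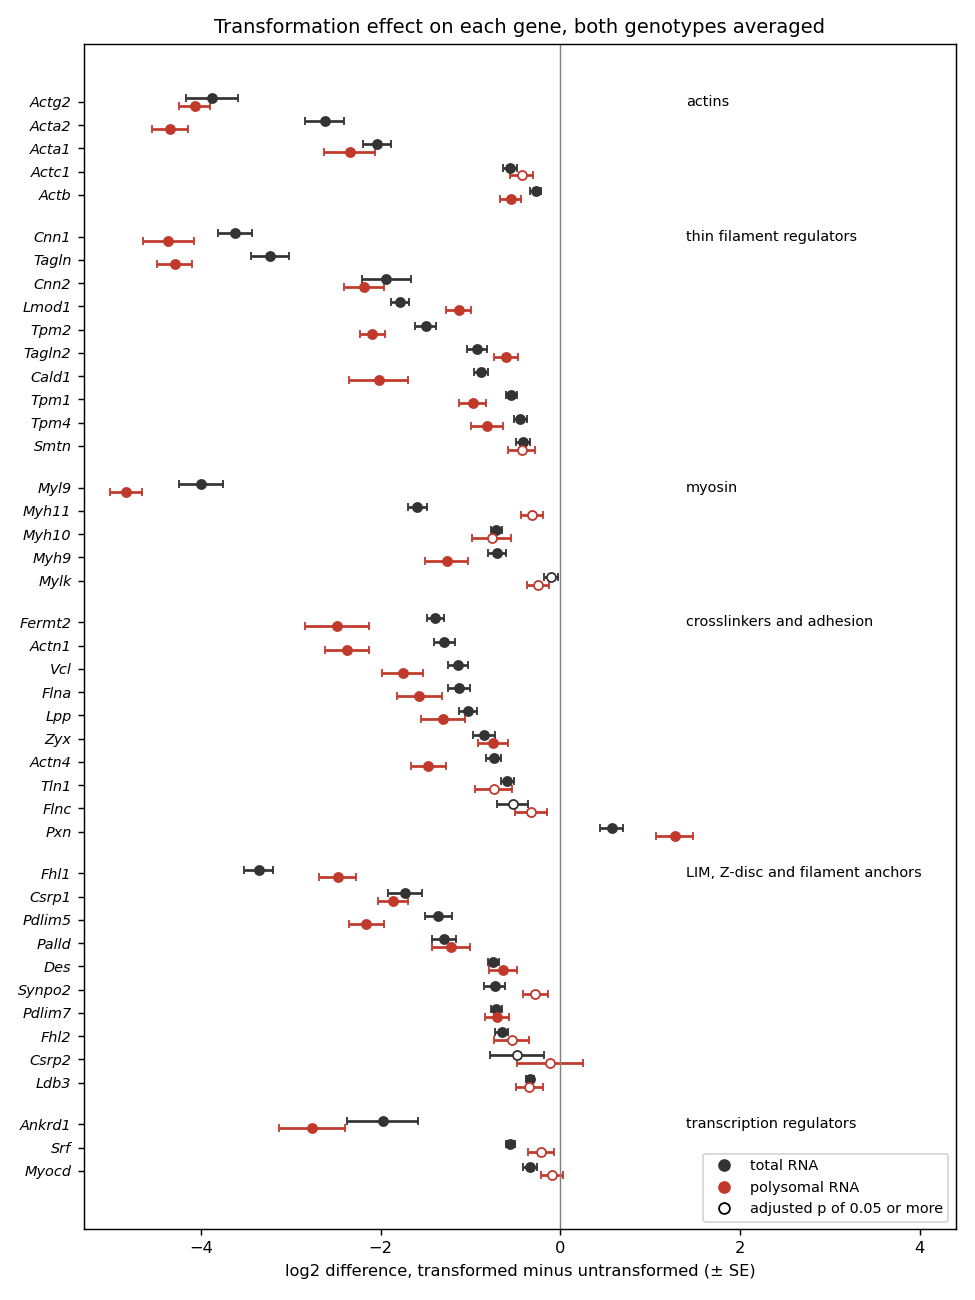
Difference between transformed and untransformed cells (horizontal axis, log2, ± SE, both genotypes averaged) for each of the 43 genes, ordered by role, in total RNA (black) and polysomal RNA (red); open circles did not pass limma's adjusted p of 0.05. In total RNA 39 genes lie to the left and pass, with Myl9 farthest at -3.996, and Pxn alone passes to the right.

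The program also fell in polysomal RNA. There limma called 30 of the 43 genes, 29 lower and Pxn higher, against 7.72% of all genes (4.05% lower and 3.67% higher). The median was -1.13 over the 43 genes and 0.01 over all genes. The loss was at least 2-fold for 22 genes, 4-fold for 14 and 8-fold for 5. The count of called genes was 16 without Het replicate 3, all of them lower, and between 21 and 33 without any other embryo. The 16 genes called under every alternative setting included Acta2, Actg2, Acta1, Cnn1, Tagln, Myl9, Fhl1, Tpm2, Actn1 and Vcl.

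Of the actins 4 of 5 fell in polysomal RNA, as did 9 of 10 thin filament regulators and 2 of 5 myosin genes. Myl9 had the largest difference, -4.84 ± 0.18 (limma adjusted p = 6.01e-05), a 28.6-fold loss from 10.02 to 10.77 (median 10.53) down to 4.33 to 7.50 (median 5.49). Cnn1 lost 20.6-fold, from 9.46 to 10.15 down to 3.06 to 7.31 (-4.37 ± 0.28), with its lowest value at the 34.5th percentile of its array. The other losses past 8-fold were those of Acta2 (-4.35 ± 0.20, 20.4-fold), Tagln (-4.29 ± 0.20, 19.6-fold) and Actg2 (-4.07 ± 0.18, 16.8-fold). In each of these 5 genes all transformed polysomal values lay below all untransformed ones.

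Of the crosslinkers and adhesion genes 7 of 10 fell in polysomal RNA, led by Fermt2 (-2.49 ± 0.36) and Actn1 (-2.38 ± 0.25). Without Het replicate 3 the calls of Fermt2 (limma adjusted p = 0.0508), Flna (0.0654) and Lpp (0.0995) were lost. Pxn rose from 4.66 to 5.43 (median 5.12) up to 5.64 to 6.93 (median 6.31), by 1.27 ± 0.21 (limma adjusted p = 0.0115). That call was lost without Het replicate 2 (adjusted p = 0.0555) and without Het replicate 3 (0.0641). Of the LIM, Z-disc and anchoring genes 6 of 10 fell, with Fhl1 first (-2.48 ± 0.21), whose transformed polysomal values lay between the 31.7th and 49.3th percentile. Of the transcription regulators Ankrd1 fell (-2.76 ± 0.37), while Srf (-0.21 ± 0.14) and Myocd (-0.09 ± 0.12) did not pass.

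Translational efficiency (TE), the log2 polysomal minus log2 total value of a culture, differed between the states for few of these genes. Limma called 5 of 43, 4 lower and 1 higher, against 2.78% of all genes (0.971% lower and 1.81% higher), and the median was -0.15 over the 43 genes and 0.01 over all genes. At an unadjusted p under 0.05 there were 18 of the 43 genes and 2459 of all genes. The polysomal difference was more negative than the total difference in 27 of the 43 genes and less negative in 16, whether called or not. The share over all genes was not computed and the fractions differ in spread, so nothing is read from this count. Without the 2 polysomal arrays of low SD the median over the 43 genes turned to 0.08 and the count was 3.

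Acta2 was called lower in TE. Its TE was -1.84, -2.13 and -1.48 in untransformed WT and -1.54, -1.55 and -1.80 in untransformed Het cultures. It was -3.33, -3.64 and -3.47 in transformed WT and -3.35, -3.27 and -3.63 in transformed Het cultures, without overlap between the states and at a like level in both genotypes. The difference was -1.72 ± 0.14 (limma adjusted p = 0.000569). Since the untransformed total values of Acta2 lay at the array maximum while its polysomal values lay 0.340 to 1.44 below theirs, whether the limit of the array bears on this difference was not tested.

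Myl9 (-0.84 ± 0.17, limma adjusted p = 0.0331), Cnn1 (-0.74 ± 0.16, 0.0496) and Actn1 (-1.09 ± 0.24, 0.0494) were lower in TE by smaller margins, and Actn1 was chosen for mention after its values were seen, as 1 of the 5 called. The transformed and untransformed states overlapped in Cnn1 and Actn1 and not in Myl9. Transformed Cnn1 went down to the 29.9th percentile in total and the 34.5th in polysomal RNA. Whether array background bears on its TE was not tested. The call of Myl9 was lost without WT replicate 2 (adjusted p = 0.119) and without Het replicate 1 (0.125), 2 (0.142) or 3 (0.0997). The call of Cnn1 was lost without WT replicate 1 (0.124) or 2 (0.131), and without Het replicate 1 (0.126), 2 (0.173) or 3 (0.226). The call of Actn1 was lost without WT replicate 1 (0.11) and without Het replicate 1 (0.0832), 2 (0.185) or 3 (0.242). The count of called genes was 3 without WT replicate 1 or 2, 2 without any Het replicate in turn, and 11 without WT replicate 3.

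Tagln (-1.06 ± 0.24, limma adjusted p = 0.0528) and Tpm2 (-0.60 ± 0.14, 0.0548) missed the threshold in TE. Both were called without the replicate block (adjusted p = 0.0138 and 0.00943) and with embryo as a random block (0.0192 and 0.0147). Of the embryos left out, only leaving out WT replicate 3 led to these calls (0.0127 and 0.0407). Fhl1 (0.88, adjusted p = 0.0359 and 0.0486) and Lmod1 (0.65, 0.0354 and 0.0495) were called higher with those 2 block settings. Transformed polysomal values of Fhl1 lay between the 31.7th and 49.3th percentile. With embryo as a fixed block Myh11 was the gene called higher, by 1.28 ± 0.16 (limma adjusted p = 0.00502). Its TE was -5.50 to -4.61 in untransformed and -3.92 to -3.51 in transformed cultures. Its polysomal values were near the array median in both states, at the 57.5th to 66.6th percentile untransformed and the 48.4th to 61.9th transformed, while its total RNA fell. Whether polysomal Myh11 stood above background was not tested.

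**Figure D3:**
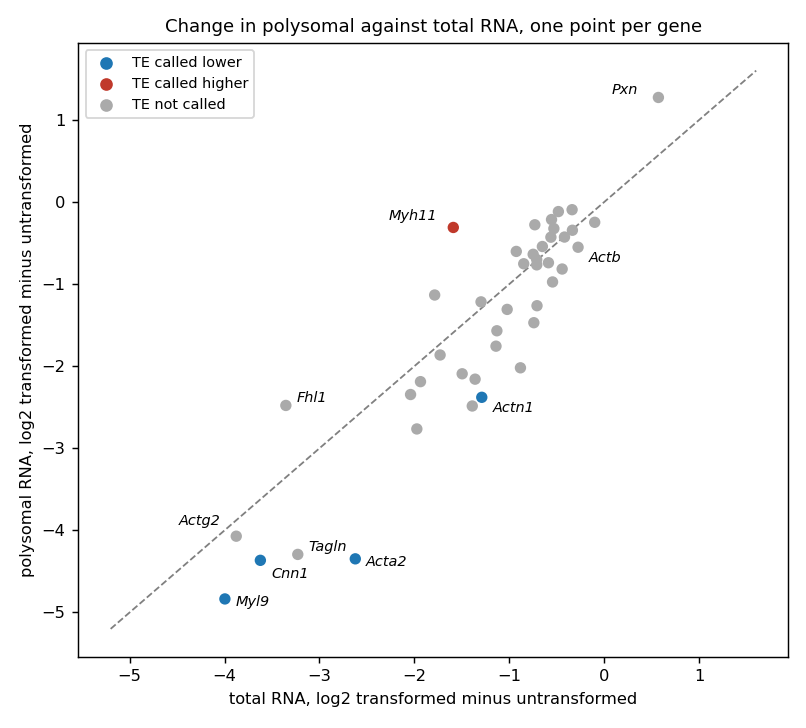
Transformation difference in polysomal RNA (vertical axis, log2) against that in total RNA (horizontal axis, log2), 1 point per gene; the dashed line marks equal differences, and colour gives the TE call by limma. Acta2 lies below the line (-2.62 in total, -4.35 in polysomal RNA), and Myh11 lies above it (-1.59 and -0.31).

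In untransformed cells the Eif4e genotype made no difference that limma called in any of the 43 genes. The share of all 14830 genes called was 0% in total RNA, polysomal RNA and TE alike. The genes with an unadjusted p under 0.05 numbered 352, 247 and 215 in these measures, of which 0, 0 and 1 belonged to the module. The medians of the 43 genes, Het minus WT, were -0.01, 0.09 and 0.14, beside -0.01, 0.02 and 0.03 over all genes. With an embryo left out they ran from -0.04 (without WT replicate 2) to 0.02 (without WT replicate 1) in total RNA, and from -0.02 and 0.01 (without WT replicate 2) to 0.34 and 0.36 (without WT replicate 3) in polysomal RNA and TE. In 5 genes, Flna, Myh9, Palld, Pdlim7 and Smtn, all 3 Het cultures had more total RNA than all 3 WT cultures, against 5.01% of all genes, and in 0 genes less, against 5.87%. In total RNA the smallest p-values belonged to Smtn (0.16 ± 0.12), Pdlim7 (0.11 ± 0.08), Myh10 (0.13 ± 0.10) and Acta1 (-0.29 ± 0.26), each with a limma adjusted p of 0.9999. With an embryo left out the difference of Myh10 ran from 0.08 to 0.20 and that of Acta1 from -0.61 to -0.02. The untransformed total RNA of this program was also tight between embryos, with a median SD over the 43 genes of 0.09 in WT and 0.10 in Het. Genotype SEs rest on a spread shared by both states, so for untransformed total RNA they may be too large.

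In untransformed polysomal RNA Myocd (-0.32 ± 0.16), Myh9 (0.53 ± 0.29), Myh10 (0.41 ± 0.29) and Flna (0.47 ± 0.33) had the smallest p-values. In TE these were Myocd (-0.43 ± 0.18), Vcl (0.42 ± 0.27), Lmod1 (0.33 ± 0.23) and Myh9 (0.42 ± 0.32). All of these had a limma adjusted p above 0.99 in their comparison, and the polysomal SD between embryos was larger, with a median of 0.40 in WT and 0.26 in Het.

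In transformed cells limma again called 0 of the 43 genes by genotype, and over all genes the shares called were 0.0472% in total RNA and 0% in polysomal RNA and TE. The genes with an unadjusted p under 0.05 numbered 9, 5 and 3 of the 43, and 1379, 478 and 430 of all. The medians, Het minus WT, were 0.12, 0.02 and -0.05, beside 0.01, -0.01 and -0.02 over all genes. With an embryo left out the median in total RNA ran from 0.02 (without WT replicate 1 or Het replicate 2) to 0.23 (without Het replicate 3). It ran from -0.05 (without Het replicate 2) to 0.14 (without Het replicate 3) in polysomal RNA and from -0.09 (without Het replicate 1) to 0.05 (without WT replicate 1) in TE, so its sign was not settled in these. In 5 genes, Acta2, Actc1, Fhl1, Myl9 and Tagln, all 3 Het cultures had more total RNA than all 3 WT cultures, against 5.81% of all genes, and in 0 genes less, against 4.44%. The count was thus the same as in untransformed cells, in other genes.

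The 4 largest genotype differences in total RNA of transformed cells belonged to Tagln, Myl9, Acta2 and Cnn1, and none of them passed the test. Their SEs rest on a spread shared with untransformed cells. The median SD over the 43 genes was 0.25 in WT and 0.26 in Het here. It was 0.09 and 0.10 in untransformed cells, so these SEs may be too small. With only the transformed groups in the fit, 0 of the 43 genes were called. Tagln was 1.91 ± 0.36 higher in Het total RNA (limma adjusted p = 0.139), at 9.61, 10.62 and 8.79 against 7.24, 7.91 and 8.12 in WT. Acta2 differed by 1.66 ± 0.37 (adjusted p = 0.231), with the lowest Het culture (10.83) just above the highest WT culture (10.77). Myl9 differed by 1.71 ± 0.42 and Cnn1 by 1.39 ± 0.33 (adjusted p = 0.266 for each), with Het replicate 3 close to WT replicate 3 in both genes and below it in Cnn1 (7.45 and 7.55). Across these 4 genes WT replicate 3 was the highest WT culture and Het replicate 3 the lowest Het culture.

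In polysomal RNA of transformed cells Tagln differed by 2.20 ± 0.38 (limma adjusted p = 0.289), at 6.45, 6.80 and 5.35 in Het against 4.001, 4.03 and 3.97 in WT. These 3 WT values are close together and the lowest of the 4 groups. Cnn1 differed by 2.48 ± 0.58, Myl9 by 1.78 ± 0.41 and Acta2 by 1.72 ± 0.43, each with an adjusted p of 0.9999. Csrp2 was at 7.81, 7.73 and 7.67 in Het and at 6.12, 7.42 and 5.01 in WT, a difference of 1.56 ± 0.50 that was not called, and the genotypes did not overlap. In TE the smallest p-values were those of Cnn1 (1.09 ± 0.32), Csrp2 (0.85 ± 0.28), Fhl1 (-0.74 ± 0.31) and Ankrd1 (0.97 ± 0.67), all with a limma adjusted p of 0.9996. With an embryo left out Fhl1 ran from -1.06 to -0.39 and Ankrd1 from 0.28 to 1.61. Transformed Cnn1 went down to the 29.9th percentile in total and the 34.5th in polysomal RNA. Transformed polysomal Fhl1 lay at the 31.7th to 49.3th percentile. Whether array background bears on the TE differences of these genes was not tested.

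**Figure D4:**
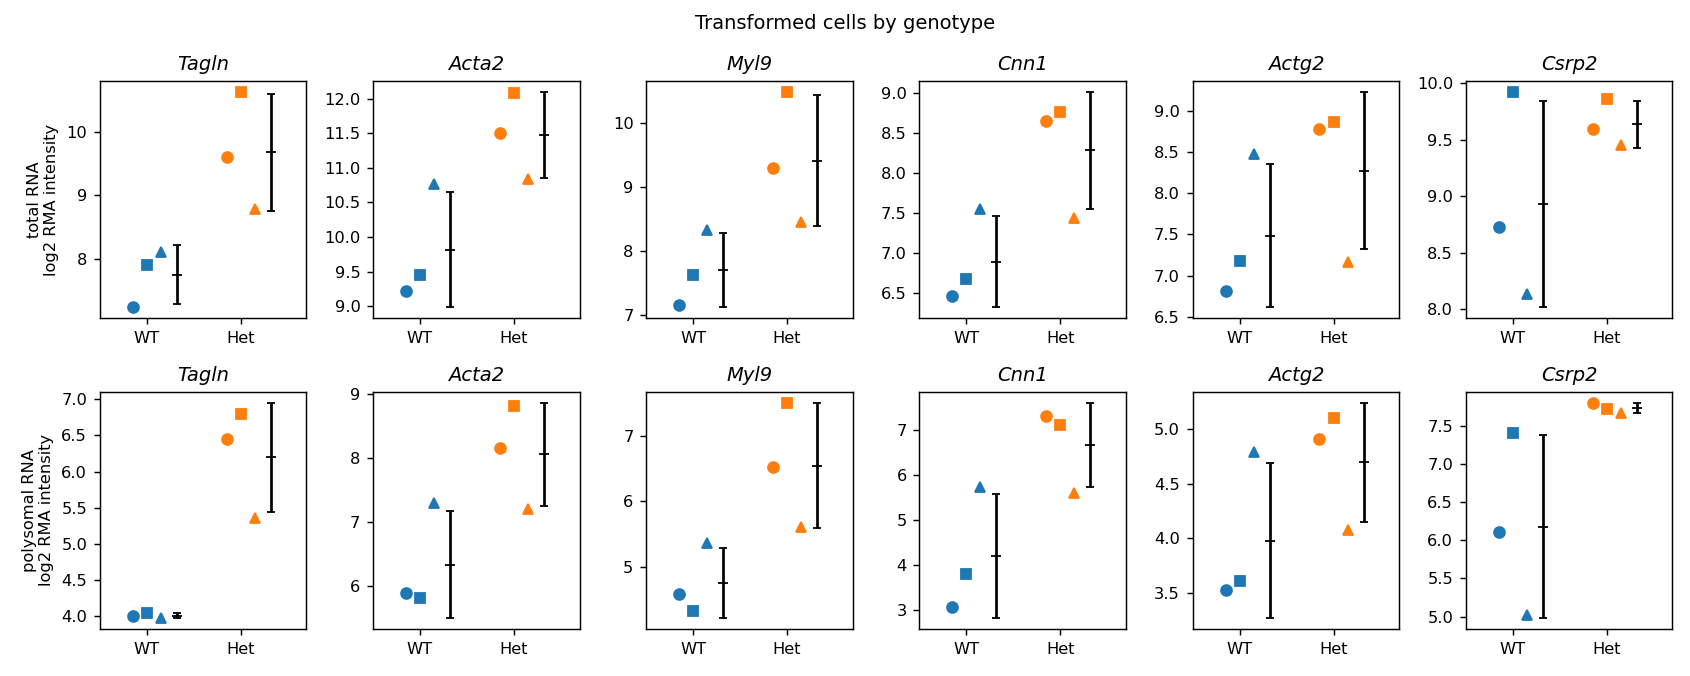
Log2 RMA intensity (vertical axis) of 6 genes in transformed cells by genotype, in total RNA (top) and polysomal RNA (bottom); circles, squares and triangles are embryos 1, 2 and 3 of a genotype, and bars give mean ± SD of 3 cultures. Het values of Tagln lie above all WT values in both fractions (8.79 to 10.62 against 7.24 to 8.12 in total RNA), and none of these differences was called.

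The difference between the genotypes in their response to transformation was also tested as an interaction, and limma called 0 of the 43 genes and 0% of all genes in each measure. At an unadjusted p under 0.05 there were 6, 4 and 1 of the 43 genes in total RNA, polysomal RNA and TE, and 723, 314 and 289 of all genes. Tagln fell by 4.21 ± 0.30 in WT and by 2.25 ± 0.30 in Het total RNA, and the interaction was 1.96 ± 0.43 (limma adjusted p = 0.916). Myl9 fell by 4.88 in WT and 3.12 in Het (interaction 1.76 ± 0.49), Acta2 by 3.46 and 1.79 (1.67 ± 0.44) and Cnn1 by 4.37 and 2.88 (1.49 ± 0.38), at the same adjusted p. In polysomal RNA the interactions were 2.37 ± 0.57 for Cnn1, 2.00 ± 0.39 for Tagln, 1.78 ± 0.36 for Myl9 and 1.55 ± 0.40 for Acta2 (limma adjusted p = 0.9996). In TE the smallest p-values were those of Cnn1 (0.88 ± 0.33), Fhl1 (-1.01 ± 0.47), Myocd (0.56 ± 0.30) and Csrp2 (0.63 ± 0.40), none of them called. The limits of low signal given for Cnn1, Fhl1 and Myocd hold here too.

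The loss of the program was called within each genotype. In total RNA 35 of the 43 genes fell in WT cells, against 9.08% of all genes called lower there, and 38 fell in Het cells, against 8.58%. In polysomal RNA 13 fell in WT (0.904% of all genes) and 17 in Het (1.31%).

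Immediate early SRF targets respond through ternary complex factors downstream of ERK. A list of such targets and of the ternary complex factors Elk1, Elk3 and Elk4 had a median difference of -0.03 in total RNA. Of the 13 genes of this list, all measured, 3 fell and 2 rose. That was a share of 38.5% called beside the 30.8% of all genes, from which nothing is read. Egr2 (-1.71 ± 0.18), Dusp1 (-1.40 ± 0.23) and Nr4a1 (-0.64 ± 0.10) fell, while Egr1 (0.73 ± 0.21) and the ternary complex factor Elk3 (0.26 ± 0.07) rose. In polysomal RNA 2 fell and 2 rose, beside 7.72% of all genes called there.

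Genes of actin turnover mostly fell, with 13 of 17 lower in total RNA, 0 higher and a median of -0.42. Over all genes, 15.8% were called lower in total RNA and 4.05% in polysomal RNA. Cap2, which recycles actin monomers, had the largest difference (-1.95 ± 0.14), followed by Pfn2 (-1.04 ± 0.14), a profilin, and Wdr1 (-0.89 ± 0.07), a cofactor of cofilin. In polysomal RNA 4 fell, including Cap2 (-1.56 ± 0.21) and the actin-severing gene Dstn (-1.27 ± 0.18). Of 15 genes of TGF-beta signalling and YAP targets 12 fell and 0 rose in total RNA, with a median of -0.73, and 6 fell in polysomal RNA. The YAP target Ccn2 (-2.49 ± 0.14) and Tgfb1i1 (-2.34 ± 0.17), a paxillin relative induced by TGF-beta, led in total RNA. In TE Ccn1 (-0.99 ± 0.17, limma adjusted p = 0.0202) was called lower. No gene of these 3 lists was called by genotype in any comparison.

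Some markers of other cells moved with the states. Of all genes, 15.8% were called lower and 15.0% higher in total RNA. Pericyte and vascular smooth muscle markers, of cells that share contractile genes with myofibroblasts, had a log2 summed level of 11.70 to 12.14 in untransformed and 9.88 to 10.65 in transformed cultures, and 4 of 6 tested fell, including Mcam (-3.00 ± 0.16) and Cspg4 (-1.04 ± 0.06). Fibroblast markers summed to 14.56 to 14.67 untransformed and 13.63 to 14.33 transformed, and 5 of 10 fell, led by Thy1 (-3.49 ± 0.41) and Pdgfrb (-1.996 ± 0.26). Of the 4 leukocyte markers tested 3 fell, with Lyz2 first (-3.98 ± 0.23), and the summed level went from 10.43 to 11.17 to between 9.38 and 11.46. Endothelial markers had 2 of 5 lower and 1 higher, and 1 of 4 epithelial markers, Krt18, rose (1.76 ± 0.41). Of 9 cardiac markers Tnnt2 fell (-0.99 ± 0.17), and of 7 skeletal muscle markers tested limma called 0, and 0 had an unadjusted p under 0.05. Nothing is read from the epithelial, cardiac and skeletal muscle counts. The part of all these other cell types in the loss of contractile RNA was not tested.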

How the data were processed

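The deposited values were log2 intensities that the authors made with RMA from Affymetrix arrays, per the submitters' processing notes and the series design. The RMA version and chip definition are not given in the sources used here. Of 25668 probe sets, 20777 carried 1 gene symbol, 232 several and 4659 none, and the last 2 classes were not used. For the 564 genes with more than 1 probe set the brightest over all arrays was taken. A gene was kept when 3 or more arrays put it above their 40th percentile.

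TE was the difference of a culture's polysomal and total log2 values. Tests used limma 3.58.1 (lmFit, eBayes) in R 4.3.3 with Benjamini-Hochberg adjustment over all 14830 kept genes, called under 0.05. Transformation effects and interactions had embryo as a fixed block. Genotype effects came from 4 group means with a residual spread shared by both states. The fits were tested on simulated data.

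The labels name the same embryo for both states, which pairs them. Deviations of an embryo's cultures correlated at -0.058 to 0.219 in total RNA, -0.438 to 0.062 in polysomal RNA and -0.413 to 0.097 in TE. The number of arrays limits precision.

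The genes and lists were chosen with earlier results of these data known. Named genes were the 5 largest rises and falls among called genes that moved alike in all embryos, the 4 smallest p-values in other comparisons, 15 context genes, the extremes of each role group and the leading genes of each list. Other members are named with values to describe their group. Alternatives were the filter, normalization, centring, probe set choice, eBayes settings, array weights, blocks, the 2 polysomal arrays of low SD and each embryo left out. Promoter windows came from RefSeq, GRCm38.p6. A further list of pathway genes is not reported here.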

Additional observations from a re-analysis of the deposited data

How the results depend on the processing

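In total RNA 38 of 40 transformation calls held in all 14 alternatives, with 38 to 41 genes called when an embryo was left out. In polysomal RNA 16 of 30 held in all 15, and 16 to 33 genes were called with an embryo left out; the cause of that range beyond fewer samples was not tested. The TE count of 5 was the least stable, at 8 with array medians centred, 10 with array weights, 15 with quantile normalization within each fraction, 3 without the 2 polysomal arrays of low SD, and 2 to 11 with an embryo left out, and the cause was not tested. Without the replicate block, which pairs the cultures of an embryo, the TE count was 10, and with embryo as a random block it was 8; the block moved no other count of called genes by over 1.5 times. Genotype and interaction counts were 0 under every alternative, and 0 called differences reversed in any. The TE call of Cnn1 was lost with eBayes trend and robust settings (adjusted p = 0.0675), without the replicate block (0.0786), with embryo as a random block (0.114) and without the 2 arrays of low SD (0.0652), and that of Actn1 without those arrays (0.165). The consensus correlation of an embryo's cultures was 0.06 in total RNA, -0.11 in polysomal RNA and -0.10 in TE. Low signal limits Myocd in both fractions, where it lay below the array median on every array, Myh11 in polysomal RNA, near that median, and Cnn1, Actg2 and Fhl1 in the dimmest transformed cultures. It also limits Synpo2, Des and Actc1 in total RNA of transformed cells, and Myl9, Tagln, Lmod1 and Myh11 there in the cultures below the array median. Signal near the array maximum limits Acta2 in untransformed cells and Actb in both states.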

Other observations

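Genes of the program with further probe sets can be read again from them. The second probe set of Myh9 gave a transformation difference of -0.30 in total RNA, and those of Lpp gave -1.43 and -1.06, the same direction as the brightest probe sets. In untransformed total RNA 26 of the 43 genes lay above the 90th percentile on all arrays, and in transformed cells 14 did; in polysomal RNA the numbers were 26 and 11. The median of the 43 genes was 10.86 to 11.09 in each untransformed culture and 8.79 to 9.84 in each transformed culture, lowest in Het replicate 3 and highest in WT replicate 3. The median SD between embryos of the same group was 0.25 in transformed WT and 0.26 in transformed Het total RNA.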
